A study of Mus musculus with 6 samples.

Results

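Mouse oocytes sorted by their chromatin were compared with pools labelled only as oocyte, and the differences that both chromatin classes had in common are described. The members are 4 of the 6 arrays of the series, 2 of SN oocytes (surrounded nucleolus) and 2 of NSN oocytes (not surrounded nucleolus), chosen by their titles, and they were set against the remaining 2 arrays, titled oocyte. Of 42006 probes of 60 bases on the array, 29044 were tested, those that Feature Extraction marked as well above background in the oocyte channel, Cy3, on at least 2 arrays.

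Fully grown mouse oocytes are found in both chromatin states. In the NSN state the chromatin is dispersed and the nucleus still transcribes. In the SN state condensed chromatin rings the nucleolus, and transcription has largely ceased, so the cell depends on stored maternal messenger RNA, whose poly(A) tails are shortened and lengthened to control its translation.

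Pool size was 50 oocytes for both SN samples, 41 and 44 for NSN, and 10 for each sample titled oocyte. Per the labels' protocols, antral oocytes came from wild type and Mater tm/tm mice, 39 weeks of age, and were sorted as SN or NSN after Hoechst staining. Mater is a maternal-effect gene of the oocyte, and the labels do not say which pools carried the mutation. Every pool was amplified linearly in 2 rounds, labelled with Cy3 and hybridised with one reference in Cy5, which combined RNA pooled from 11 mouse lines in culture with RNA of 129ES embryonic stem cells, at 2 parts to 1. The characteristics call all 6 samples embryonic stem cells of the embryo, against the titles, and the markers that could check this were not usable because the files do not pair probe identifiers with genes. All 4 SN and NSN arrays shared slide 3, whereas the oocyte arrays lay on slides 1 and 2. Chromatin sorting, pool size and slide therefore changed together between the sides and cannot be told apart. Genotype may have differed between the sides as well, since it is not given for each pool. The labels do not say that pools came from separate animals, so p-values measure only the spread between these pools.

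Mean Cy3 intensity over probes was 1417 and 2110 on the oocyte arrays and 4719 to 5361 on the SN and NSN arrays. Mean Cy5 intensity went the other way, 4595 and 5341 against 3464 to 3932. Cy3 was detected well above background at 75.3% and 80.4% of the tested probes in the oocyte pools and at 92.2% to 97.4% in the other pools. With 2 and 4 arrays to a side, the number of arrays limits the precision, and no spot of a probe was marked as saturated. The series design states scans at 100% and 10% of the detector setting. Whether the brightest values were scaled up from the low scan was not examined.

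The probes with the widest shared differences are described first, as extremes of the comparison, and their sequences are printed from the array files, 5′ to 3′. They were taken as the 2 highest and the 2 lowest among shared probes that passed the background mark in Cy3 and Cy5 alike on all 6 arrays. The fifth sequence belongs to another probe of the array that overlaps one of them. Capitals mark the 57 bases that this pair has in common, and the other 3 probes have no capitals. The files give these probes no position and no gene.
Z00062375-1: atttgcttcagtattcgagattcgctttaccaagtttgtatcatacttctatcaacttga
Z00027064-1: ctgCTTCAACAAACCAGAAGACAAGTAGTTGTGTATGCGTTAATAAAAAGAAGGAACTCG
Z00059304-1: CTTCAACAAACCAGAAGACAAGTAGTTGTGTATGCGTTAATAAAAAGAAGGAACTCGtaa
Z00024684-1: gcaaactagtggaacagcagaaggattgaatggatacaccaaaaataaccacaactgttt
Z00074008-1: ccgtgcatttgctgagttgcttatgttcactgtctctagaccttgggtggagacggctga

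Z00062375-1 was dim on the oocyte arrays and bright on the SN and NSN arrays. Its Cy3 intensity was 107 and 125 in the oocyte pools, 132055 and 142114 in the SN pools, and 147358 and 151434 in the NSN pools. Expressed as the log2 ratio of Cy3 over Cy5 after loess normalisation, it was -3.44 and -2.91 in oocyte, 3.64 and 3.88 in SN, and 3.60 and 3.80 in NSN. The 4 SN and NSN arrays lay close together and far above both oocyte arrays. The difference was 6.91 (SE 0.188; 95% interval 6.45 to 7.37; limma, Benjamini-Hochberg adjusted p = 7.35e-06), a 120-fold change of the ratio. The alternative settings gave values from 6.64 to 10.53. Cy3 was dim in the oocyte pools, at 107 and 125, so the size of this change is less certain.

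The overlapping pair Z00027064-1 and Z00059304-1 was higher in SN and NSN in both measurements. The log2 ratio of Z00027064-1 was -7.49 and -6.98 in oocyte, 0.12 and -0.08 in SN, and -0.76 and -0.99 in NSN, a difference of 6.81 (SE 0.184; limma adjusted p = 7.35e-06). Z00059304-1 measured -7.10 and -6.70 in oocyte, 0.15 and 0.00 in SN, and -0.71 and -0.91 in NSN, a difference of 6.53 (SE 0.158; limma adjusted p = 7.35e-06). The groups did not overlap for either probe, and NSN lay below SN on both. The reference channel moved with this result: the Cy5 intensity of Z00027064-1 was 239185 and 211013 on the oocyte arrays but 19244 to 33467 on the SN and NSN arrays, although the labels describe one reference. With each channel scaled alone by quantiles, Cy3 of Z00027064-1 was higher by 3.87 and Cy5 was lower by a log2 difference of -2.59, so the difference in the oocyte channel alone was smaller than that of the ratio. The stretch in common holds AATAAA, the hexamer that marks the end of many messenger RNAs, starting at base 42 of Z00027064-1 and base 39 of Z00059304-1.

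Z00024684-1 showed the widest difference in the other direction. Its log2 ratio was 8.17 and 8.07 in oocyte, 0.16 and 0.43 in SN, and -0.11 and 0.46 in NSN. Its Cy3 intensity was 9829 and 5207 in oocyte and 91.5 to 133 on the SN and NSN arrays, while Cy5 was 227 and 177 against 129 to 145. Cy3 on the SN and NSN arrays and Cy5 on all arrays were thus dim, so the size of this ratio is less certain. The ratio fell by 7.89 (SE 0.193; 95% interval -8.36 to -7.42; limma adjusted p = 7.35e-06). Z00074008-1 measured 4.86 and 4.80 in oocyte, -0.72 and -0.80 in SN, and -0.71 and 0.39 in NSN. NSN replicate 2 stood above the other 3 arrays, and all 4 were below both oocyte arrays. The Cy3 intensity of Z00074008-1 was 2739 and 1679 in oocyte and a dim 95.4 to 194 on the SN and NSN arrays. The size of its ratio is therefore less certain as well. Its ratio fell by 5.29 (SE 0.295; limma adjusted p = 2.97e-05). The alternative settings gave values from -9.24 to -6.13 for Z00024684-1 and from -7.28 to -4.11 for Z00074008-1, and, for the pair above, from 3.87 to 8.49 for Z00027064-1 and from 3.80 to 8.30 for Z00059304-1.

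**Figure D1:**
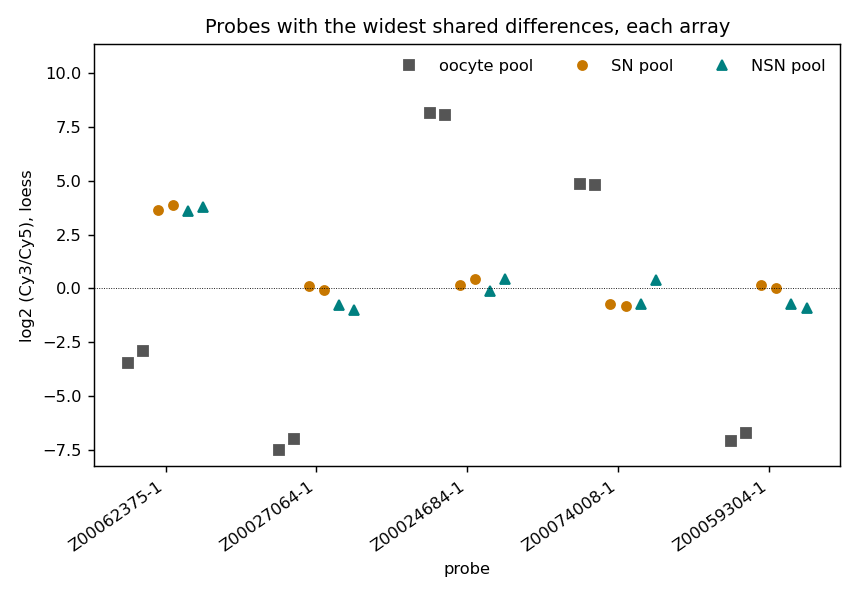
Log2 ratio of Cy3 over Cy5 after loess (vertical axis) of the 5 printed probes (horizontal axis) on each array; squares are oocyte pools, circles SN pools and triangles NSN pools, 1 point per array. For each probe the 4 SN and NSN points lie on one side of both oocyte points, and NSN replicate 2 of Z00074008-1 sits at 0.39.

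Across the array and with loess, SN and NSN oocytes differed together from the oocyte pools at most tested probes. limma called 18893 of 29044 probes at a Benjamini-Hochberg adjusted p under 0.05, 65% of them, with 8054 higher in SN and NSN (27.7%) and 10839 lower (37.3%). A probe was counted as shared where it was called, all 4 SN and NSN arrays lay on the same side of both oocyte arrays, and the SN and NSN means were under 1 log2 unit apart. By this rule 7501 probes were shared and higher (25.8%) and 10725 shared and lower (36.9%). Without regard to the call, all 4 arrays lay above both oocyte arrays at 31.6% of tested probes and below both at 40.7%. Fewer shared probes kept their side under all 5 scalings described below, 20.7% of tested probes higher and 11.7% lower. The same contrast on the reference channel alone called 24.3% of probes when scaled by quantiles and 40.9% when scaled to the 75th percentile. For a single probe the exact two-sided permutation test over 2 of 6 arrays cannot give a p under 0.0667, so the calls rest on limma's pooling of the spread over probes.

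**Figure D2:**
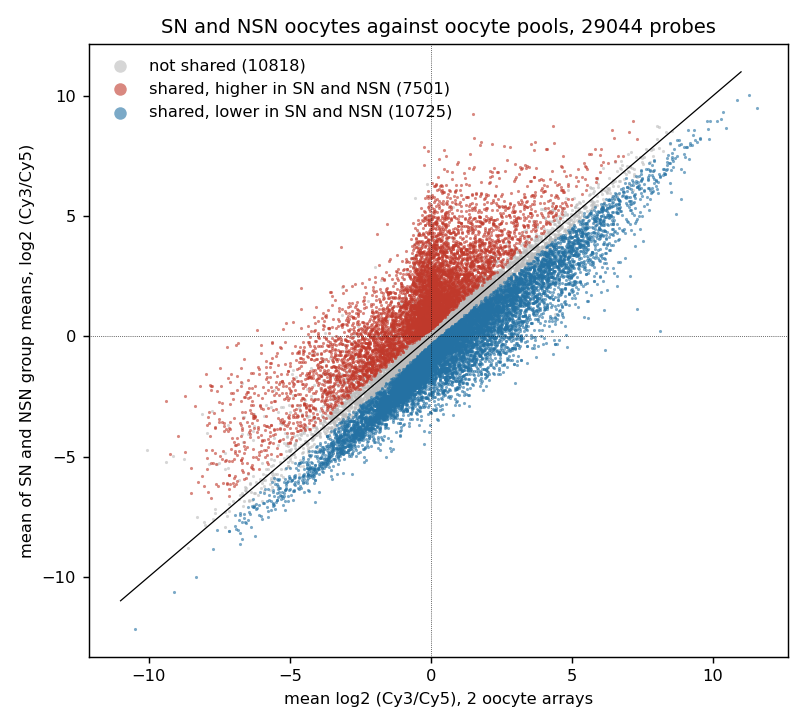
Mean log2 ratio of Cy3 over Cy5 of each tested probe in the 2 oocyte pools (horizontal axis) and the mean of the SN and NSN group means (vertical axis); the solid line marks equal values. At least 4-fold off the line lie 2563 of the 7501 shared higher probes (red) and 1561 of the 10725 shared lower probes (blue). Where each dye passed the background mark on every array, these counts were closer, 1687 against 1420. The farthest single probe is a lower one (-7.89), and 10818 probes (grey) were not shared.

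With loess more probes were far apart on the higher side and more were shared on the lower side, and the second order turned with median centring. Shared higher probes had a median difference of 1.47 (2.77-fold) and shared lower probes a median of -1.19 (2.28-fold). At least 4-fold, 2563 probes were higher and 1561 lower. At least 16-fold, 475 were higher and 47 lower, and at least 32-fold, 148 and 6. The filter asked for 2 arrays only, which the brighter SN and NSN arrays could meet alone. Of the shared higher probes, 1385 passed it on no oocyte array, and 84 of the shared lower on no SN or NSN array. Where each dye passed the mark on every array, the 4-fold counts were closer, 1687 higher and 1420 lower. With Cy3 passing on every array, the 16-fold counts were 301 and 40. Over all tested probes the difference had a median of -0.09, with the 1st percentile at -3.12 and the 99th at 4.49, and the median SE was 0.151.

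The gap between the SN and NSN means had a median of 0.17 log2 units over all tested probes. It was 0.19 over all called higher and 0.16 over all called lower probes, and 0.18 and 0.16 at the shared ones, where the rule keeps it under 1. Shared higher probes had a median log2 ratio of -0.10 in oocyte, 1.11 in SN and 1.15 in NSN. Shared lower probes had 0.41 in oocyte, -0.81 in SN and -0.71 in NSN. Of the 667 called probes that were not shared, 346 had overlapping arrays and 321 had SN and NSN means 2-fold or more apart, of which 307 were higher and 14 lower than in oocyte.

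The direction of small differences depended on the scaling, and that of the large ones did so rarely. Loess was set beside median centring, the deposited log ratio, and Cy3 alone scaled to the 75th percentile or by quantiles. The 4 arrays lay on the same side of both oocyte arrays under all 5 at 6012 of the shared higher probes (20.7% of those tested; 80.1% of the shared) and at 3389 of the shared lower probes (11.7%; 31.6% of the shared). At 4-fold or more, 2485 of 2563 higher and 1499 of 1561 lower probes kept their side. Median centring moved the median of all tested probes from -0.09 to 0.38, and shared probes then numbered 12225 higher and 2930 lower. Of all calls, 81.7% were higher with median centring and 42.6% with loess.

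The 4-fold probes can be sorted by the sign of their loess ratio against the reference mixture of cell lines; loess sets the zero of that ratio on each array, so the sign is relative to other probes of like brightness and not to equal amounts of RNA. Restricted to probes that passed the background mark in Cy3 and Cy5 on all 6 arrays, 1687 were at least 4-fold higher. Of these, 591 had a ratio below 0 in oocyte and above 0 in both SN and NSN, 584 were above 0 on both sides, and 478 were below 0 on both sides. Of 1420 at least 4-fold lower, 618 went from above 0 to below it, 543 stayed above and 200 stayed below. Without that restriction, the 475 shared probes at least 16-fold higher had a median log2 ratio of -0.09 in oocyte, 4.43 in SN and 4.53 in NSN. The 47 at least 16-fold lower had 4.30, -0.53 and -0.26. Of the 475, 301 were well above background in Cy3 on all 6 arrays and 86 on no oocyte array, where the ratio is limited by dim signal. Of the 47, 40 were well above background in Cy3 on all 6 arrays.

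Detection was counted apart from the test. On all 4 SN and NSN arrays but neither oocyte array, 2679 probes were well above background, and 98 showed the reverse. The first count was 4182 without oocyte replicate 1, the brighter of the oocyte arrays, and the second 224 without oocyte replicate 1, 476 without oocyte replicate 2 and 176 without SN replicate 1. Of the 2679, 1284 were among the shared higher probes, and of the 98, 84 were among the shared lower ones. Probes counted this way passed the filter only on the side where they are high, so their direction is set by the choice. Cy3 signal was lower on the oocyte arrays as a whole, and the part of that in these counts was not tested. Fewer transcripts per oocyte and less RNA per pool cannot be told apart.

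The comparison was repeated on arrays that share no pool. Replicate 1 of oocyte was set against the SN arrays, and replicate 2 of oocyte against the NSN arrays. Of 12652 probes at least 2-fold apart in the first, 97.7% had the same direction in the second and 81.0% were again at least 2-fold apart. In the second comparison, 42.8% of all probes were at least 2-fold apart. With the oocyte arrays exchanged the shares were 98.8% and 81.1%, and with the deposited log ratio 94.1% and 80.5%. Across 29033 probes the pair of comparisons correlated with r = 0.93 (0.87 with the deposited log ratio), given as a description, since the SN and NSN arrays share a slide and probes are not independent replicates.

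Probes that overlap in sequence gave a check within the array. The array held 671 pairs of tested probes that share 20 to 59 bases, and the median gap between their differences was 0.17 log2 units. Agreement was closer with more bases in common, at a median of 0.25 for 265 pairs sharing 20 to 39 bases, 0.13 for 406 pairs sharing 40 to 59, and 0.07 for 22 pairs with all 60. Both members were shared probes in 409 of the 671 pairs. In 407 of those both had the same direction, and in 2 one was higher and the other lower. That count leaves out pairs with only 1 shared member. Over all 671 pairs, 36 had differences more than 1 log2 unit apart. Members of a pair read the same or neighbouring RNA and are not independent.

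**Figure D3:**
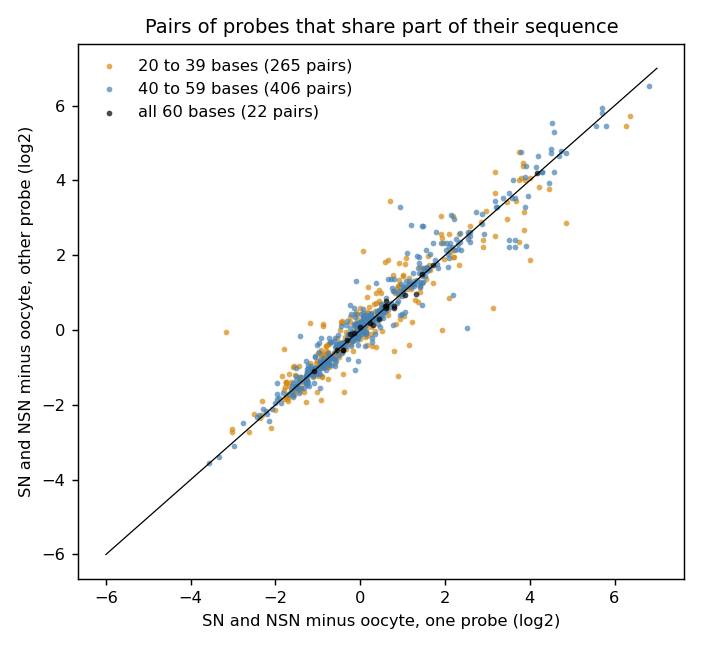
SN and NSN minus oocyte on the log2 scale for the 2 members of each overlapping pair of probes, one member on each axis; colours give the number of bases in common and the line marks equal values. The 406 pairs sharing 40 to 59 bases lie closer to the line (median gap 0.13) than the 265 pairs sharing 20 to 39 (0.25).

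Some probes could be placed in the genome and so given a gene. RefSeq's promoter table for GRCm38.p6 holds 300 bases around each of 32851 start sites, and 267 probes of the array matched such a window over all 60 bases. Of these, 174 were tested; 32 were shared and higher (18.4%) and 54 shared and lower (31.0%), against 25.8% and 36.9% of all tested probes. A probe was assigned to a gene where it matched 1 place, lay within the span of 1 gene on that gene's strand, and no other gene of the table covered it. This left 72 probes, with 11 shared and higher (15.3%), 22 shared and lower (30.6%) and a median difference of 0.03. The table gives gene spans only, so whether a probe lies in an exon, an intron or a UTR was not determined here, and for the genes described next, other than Cfap410, the matched window is that of a neighbouring gene. The 5 with the widest difference in each direction, among those on one side under all 5 scalings and well above background on all 6 arrays, are described. This selection was made after the values were seen.

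On the higher side, Ndufa9 differed most. It encodes a subunit of complex I, the first enzyme of the mitochondrial respiratory chain, and its probe Z00023831-1 lies at chr6:126821978-126822037 on the minus strand. The log2 ratio was -4.28 and -3.97 in oocyte, -0.10 and -0.22 in SN, and -0.21 and -0.28 in NSN. The SN and NSN arrays were within 0.2 of each other, and the oocyte arrays lay far below them. The difference was 3.92 (SE 0.137; limma adjusted p = 8.82e-06), or 15.1-fold. Sympk encodes symplekin, a scaffold of the machinery that cleaves and polyadenylates messenger RNA, and is measured by Z00040196-1 at chr7:19054553-19054612 on the plus strand. It was -2.18 and -2.27 in oocyte, 0.46 and -0.09 in SN, and 0.02 and -0.10 in NSN, a difference of 2.30 (SE 0.178; limma adjusted p = 9.22e-05). A second probe within Sympk did not move with it: Z00074101-1, at chr7:19054462-19054521 on the same strand and well above background on all 6 arrays, had means of -2.21 in oocyte, -2.18 in SN and -2.15 in NSN; it differed by 0.04 (SE 0.165; limma adjusted p = 0.827). The probes of this gene therefore disagree, and the value of Z00040196-1 is not a value for the gene as a whole.

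The next 3 genes differed by less. Unc13b, which encodes a protein that primes vesicles for release (Z00029168-1, chr4:43046214-43046273, plus strand), was -0.18 and -0.09 in oocyte, 1.08 and 1.17 in SN, and 1.47 and 1.76 in NSN, a difference of 1.504 (SE 0.133; limma adjusted p = 0.000154). NSN lay above SN on this probe, and its Cy3 intensity was only 62.3 and 56.3 in oocyte and 193 to 289 on the others. Camta2, a calmodulin-binding transcription activator (Z00036319-1, chr11:70669582-70669641, minus strand), was 0.80 and 0.41 in oocyte, and had means of 1.11 ± 0.02 in SN and 1.41 ± 0.13 in NSN (SD, n = 2), a difference of 0.66 (SE 0.151; limma adjusted p = 0.00918). The Cy3 intensity of Camta2 was 147 and 84.8 in oocyte and 616 to 1113 on the others. Pcif1 encodes the enzyme that methylates adenosine beside the cap of messenger RNA (Z00035962-1, chr2:164891221-164891280, plus strand). It was -0.44 and -0.50 in oocyte and 0.00 to 0.11 on the other arrays, a difference of 0.52 (SE 0.112; limma adjusted p = 0.00697). The call for Camta2 was lost without oocyte replicate 2 (limma adjusted p = 0.0547), and that for Pcif1 with the arrays at position 4 only (limma adjusted p = 0.0665). The sizes and their order depended on the scaling: with median centring the differences were 6.62 for Ndufa9, 4.59 for Sympk, 1.14 for Unc13b, 1.93 for Camta2 and 2.86 for Pcif1.

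On the lower side, Ciao2b differed most. It encodes a component of the cytosolic machinery that inserts iron-sulfur clusters into proteins, and its probe Z00075063-1 lies at chr8:104641554-104641613 on the minus strand. The log2 ratio was 0.20 and 0.10 in oocyte, -3.29 and -3.11 in SN, and -2.85 and -3.02 in NSN. The 4 SN and NSN arrays lay close together and far below both oocyte arrays, and the ratio fell by 3.22 (SE 0.126; limma adjusted p = 1.07e-05). Trmt112 encodes a partner that activates several RNA and protein methyltransferases (Z00032090-1, chr19:6910099-6910158, plus strand). It was 1.09 and 0.87 in oocyte, -1.84 and -2.03 in SN, and -1.87 and -1.71 in NSN, and fell by 2.85 (SE 0.134; limma adjusted p = 1.76e-05). Gng5, a gamma subunit of heterotrimeric G proteins (Z00058672-1, chr3:146499899-146499958, plus strand), was -1.65 and -1.74 in oocyte and -4.47 to -4.23 on the other arrays. It fell by 2.62 (SE 0.118; limma adjusted p = 1.58e-05). Cy3 was dim for both of the last genes, so the size of these ratios is less certain. The Cy3 intensity of Trmt112 was 280 and 191 in oocyte and 94.8 to 121 on the other arrays. That of Gng5 was 250 and 174 in oocyte and 140 to 159 on the others. With median centring the differences were -2.37 for Ciao2b, -1.54 for Trmt112 and -1.29 for Gng5.

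Cfap410 and Zbtb8a had negative ratios on every array. Cfap410, a gene for a protein of cilia (Z00063945-1, chr10:77978615-77978674, plus strand), was -6.70 and -5.78 in oocyte, -8.13 and -8.00 in SN, and -8.55 and -8.51 in NSN. It fell by 2.06 (SE 0.257; limma adjusted p = 0.000643), with an SD of 0.66 between the oocyte arrays (n = 2). With median centring the difference was -0.61. Its Cy3 intensity was 572 and 244 in oocyte, and the others, at 410 to 547, lay between these. Cy5 was 134056 and 61006 in oocyte and 90871 to 115943 on the others. With each channel scaled alone by quantiles, Cy3 differed by -1.72 and Cy5 by 0.69. Zbtb8a, a zinc finger and BTB domain gene (Z00010249-1, chr4:129354034-129354093, minus strand), was -2.11 and -1.81 in oocyte and had means of -3.65 ± 0.21 in SN and -3.51 ± 0.02 in NSN (SD, n = 2), and fell by 1.62 (SE 0.151; limma adjusted p = 0.000186). Its Cy3 intensity was only 64.95 and 58.4 in oocyte and 84.7 to 92.6 on the others, which runs against the fall of the normalised ratio. Cy5 was 3687 and 2865 in oocyte and 2965 to 3167 on the others. The call for Zbtb8a was lost with median centring (difference -0.23, limma adjusted p = 0.21) and with Cy3 alone by quantiles (-0.21, limma adjusted p = 0.135).

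**Figure D4:**
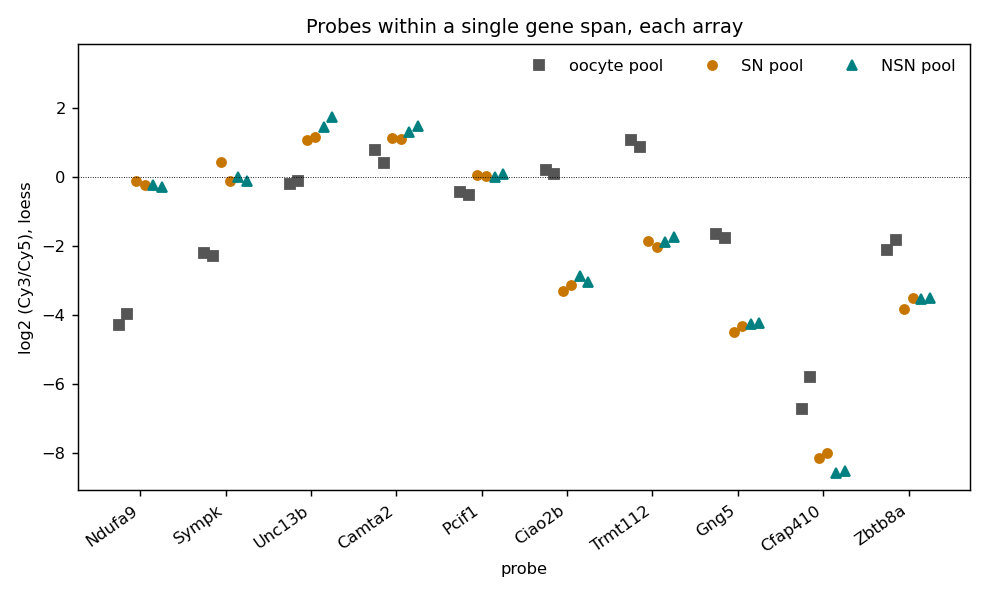
Log2 ratio of Cy3 over Cy5 after loess (vertical axis) on each array for the 10 probes placed within a single gene (horizontal axis); squares are oocyte pools, circles SN pools and triangles NSN pools. Ndufa9 has the widest gap upward (3.92) and Ciao2b the widest downward (-3.22).

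The Cy5 reference should carry the same RNA on all arrays, so its own difference between the sides was measured. With Cy5 alone scaled by quantiles, limma called 7061 probes (24.3%), against 18483 (63.6%) for Cy3 alone. Scaled to the 75th percentile, 40.9% were called in Cy5 and 66.3% in Cy3. The differences were much narrower in Cy5, with an SD over probes of 0.354 on the log2 scale against 1.65 in Cy3. At least 2-fold, 341 probes had more Cy5 signal with SN and NSN than with oocyte, and 257 had less. Among the 2563 shared probes at least 4-fold higher, Cy3 alone was at least 2-fold higher at 95.9% and Cy5 had moved 2-fold or more at 7.37%; among the 1561 lower, these shares were 97.7% and 3.20%. Over all tested probes Cy5 had moved 2-fold or more at 2.06% and Cy3 at 41.0%. Cy5 shifts were thus more frequent in both 4-fold sets than on the array as a whole. These sets were chosen by the ratio of Cy3 over Cy5, so an excess in either channel is in part set by the choice.

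The Cy5 difference followed the Cy3 level where the reference was dim. For probes with a log2 Cy5 level under 8 in oocyte, the median Cy5 difference was -0.01 at 8083 probes with a Cy3 level under 8 in SN and NSN. It was 0.07 for 1863 probes between 8 and 12, 0.48 for 238 between 12 and 14, and 1.13 for 77 between 14 and 16. Where Cy5 was at 16 or above in oocyte and Cy3 reached 16 in SN and NSN, the median Cy5 difference over 179 probes was -0.35. The part of these Cy5 shifts in the ratios was not tested.

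Shared higher probes were slightly richer in A and T, a feature the comparison did not use. Their median G and C content was 43.3%, against 45% for all tested probes and 45% for shared lower probes. Their share fell from 33.8% of 376 probes with 25 to 30% G and C to 9.26% of 54 probes with 75 to 80%. The share of shared lower probes lay between 33.4% and 37.4% in the bins from 25 to 60% G and C. It rose only in the smaller bins above 60%, to 63.0% of the 54 probes in the last. Probes with 20 to 25% G and C stood apart from the course of the higher share, with 28.8% shared higher and 37.4% lower (n = 139). Among probes on one side under all 5 scalings, the higher share likewise fell from 24.2% to 3.70%, while the lower share had no steady course, lying between 5.43% and 13.0%. The median difference was lower at 60% G and C or more than under 40% under each of the 20 settings run, by a log2 difference of -0.51 to -0.10.

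**Figure D5:**
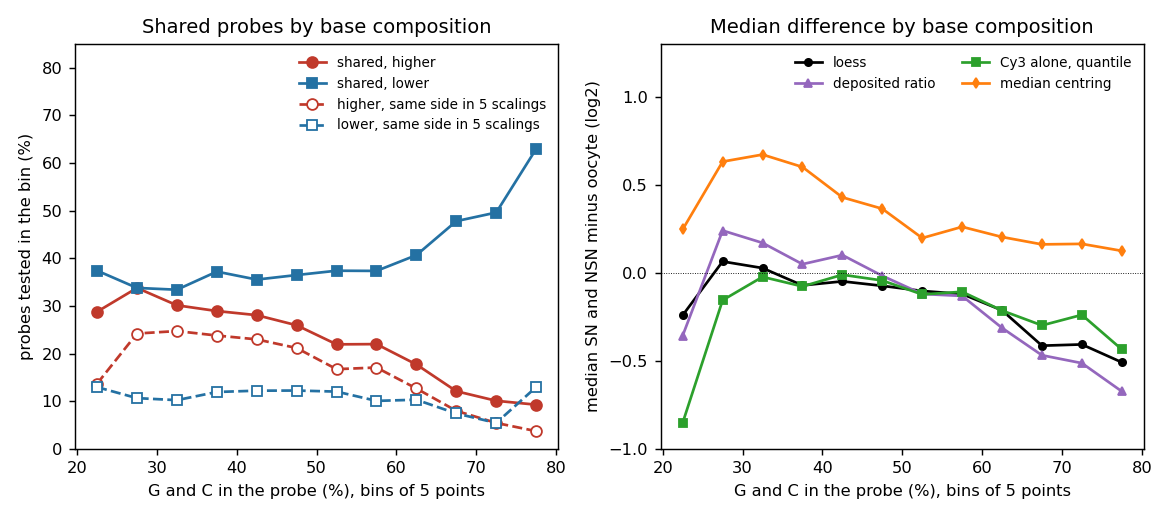
Left, percent of tested probes (vertical axis) that were shared and higher or lower in bins of probe G and C content (horizontal axis), with dashed lines for those on the same side under 5 scalings; right, median SN and NSN minus oocyte on the log2 scale for 4 scalings in the same bins. The shared higher share falls from 33.8% to 9.26% between the second and the last bin, and median centring lifts every bin above 0.

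Sequence motifs of messenger RNA ends were searched in the probes, as a description. AATAAA was present in 2290 tested probes (7.88%), whose median difference was 0.22 against -0.12 without it, and 37.6% of them were shared and higher and 26.9% shared and lower, where all tested probes give 25.8% and 36.9%. On the opposite strand, TTTATT was present in 921 probes (3.17%) with a median of -0.15 against -0.09, and with 25.7% shared and higher and 38.9% shared and lower its shares were near those of all probes. Among probes under 40% G and C, the median was 0.14 with AATAAA and -0.09 without. TTTTAT, the core of the cytoplasmic polyadenylation element, was present in 911 probes (3.14%), of which 323 also held TTTATT. The median was -0.27 with TTTTAT against -0.09 without, and 22.5% were shared and higher and 42.4% shared and lower. With median centring the medians hardly differed, at 0.36 with TTTTAT and 0.38 without it. Its opposite strand, ATAAAA, which coincides with AATAAA in 767 of its 1219 probes (4.20%), had a median of 0.20. The order of AATAAA above its opposite strand held with median centring as well, at 1.15 and 0.43.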

How the data were processed

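RNA of 6 oocyte pools had been hybridised in Cy3 against a Cy5 reference, with dyes never swapped. Per the file headers, Agilent Feature Extraction 9.5.1.1 made the scanner files, which hold the deposited spot intensity and local background in each channel, not normalised. They also hold processed intensity values, background-subtracted and dye-normalised by the authors' software, a deposited log10 ratio with Cy5 in the numerator (sign turned here) and the flags used here. The authors' deposited value table is on a log10 scale and was used as an alternative; over its 25030 rows it correlated with log10 processed Cy3 intensity with r of 0.994 to 0.998 per array. The table had medians of 2.44 and 2.48 in the oocyte columns and 2.55 to 2.57 in the others; its exact centring and its choice of probes are unknown.

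Where an array had 2 scans, the brighter was used. Intensities were corrected with normexp (offset 50) and normalised by loess in limma 3.58.1 (R 4.3.3), with control spots at weight 0. Spots of a probe were averaged. The 3 groups were fitted together, and the mean of SN and NSN minus oocyte was tested two-sided, with Benjamini-Hochberg adjustment over 29044 probes. Bins under 20 probes were left out of the trend with base composition. Spots marked as uneven, at most 9 on an array, were dropped, leaving 16 missing values. The fit was tested on simulated data. Members, lists and rules were chosen with earlier results of these data known, and the 5 scalings together, the overlapping pairs, the placed probes, the motifs and the Cy5 levels after seeing the data. The rule for named probes took the 2 widest differences in each direction. Same-numbered arrays did not pair. Gene lists and cell type markers were not used, since the files give no gene names.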

Additional observations from a re-analysis of the deposited data

Results flagged for a closer look

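Over the 4 SN and NSN arrays, 2 of 21 quantities checked had an array far from the others, where chance gives about 1 in 20. For Z00074008-1, the gap of NSN replicate 2 (log2 ratio 0.39) to the nearest of the other 3 arrays, which lay between -0.80 and -0.71, was 0.923 of the whole range. For Zbtb8a, SN replicate 1 (-3.80) was apart from the other 3 arrays (-3.52 to -3.50), and the gap was 0.921 of the range.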

How the results depend on the processing

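Slide, pool size and chromatin sorting cannot be told apart, and the genotype of each pool is not given. The identity of the oocyte pools beyond their title is not settled, and probes in the dim range of either channel limit the size of a ratio. The authors' processed values, raised to 2.0 where lower, gave 11569 calls, 4872 shared higher and 5992 shared lower; fewer probes are in that table. Median centring gave 12225 shared higher and 2930 shared lower. The median difference was -0.14 with an offset of 16, -0.039 with the deposited log ratio, 0.38 with median centring, -0.33 with Cy3 alone at the 75th percentile, 0 with the authors' values, -0.35 with both channels well above background on all 6 arrays, -0.045 with no filter and -0.26 with position 4 arrays only, a fit that assumes the lone NSN array varied like the oocyte arrays. With 1 array left out it lay between -0.10 and -0.071, calls between 16312 and 18019, shared higher probes between 6412 and 7289, and shared lower between 9481 and 10167. The detection counts then lay between 2744 and 4182 and between 116 and 476. Cy5 alone gave 11890 calls at the 75th percentile (40.9%). Shared probes of at least 4-fold numbered 1687 to 5428 higher and 305 to 3714 lower over the settings, and at least 99.2% of those reported kept their direction. Of 278 values of the 15 probes named, 274 kept direction and call, 4 lost the call (Zbtb8a under 2 scalings, Camta2 without oocyte replicate 2, and Pcif1 with position 4 arrays only, limma adjusted p = 0.0665) and 0 reversed. With slide as a random block (consensus correlation 0.07), 18382 probes were called. The SN and NSN arrays shared a slide that held no oocyte array, so this block cannot remove a slide difference between the sides.

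With the replicate number as a block, 19086 probes were called, 7484 shared higher and 10716 shared lower. Deviations of same-numbered arrays correlated at -0.02 for oocyte and SN, 0.15 for oocyte and NSN and 0.21 for SN and NSN, so the numbers do not pair the arrays.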
